A study of Mus musculus with 24 samples.

Results

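Among 24 wounds of diabetic mice, 7 carried Nos2 at 25 CPM (counts per 1000000 counts) or more and are called Nos2-high here. Another 10 carried Nos2 under 6 CPM and are called Nos2-low. The other 7 wounds lay between these limits and were kept out of the comparison of the classes. The sum of all gene counts of a library is the base of its CPM. Measured Nos2 chose the classes, whatever bandage a wound had received, and no test result is given for Nos2 itself. Nos2 was still fitted with the other genes and counted in the adjustment of their p-values, which lowers their adjusted p. The question asked of every other gene was whether its level went with the class once bandage group was in the model. The classes were not assigned by the experimenters, so a gene that differs between them goes with Nos2 and was not shown to respond to it.

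Nos2 encodes inducible nitric oxide synthase, which makes nitric oxide from arginine and, unlike its neuronal and endothelial relatives, is controlled mainly through transcription. Macrophages, keratinocytes, fibroblasts and other cells switch it on when cytokines such as IL-1β, TNF and interferon-γ or microbial products reach them, in part through NF-κB. In skin wounds the enzyme belongs to the inflammatory phase, and arginases compete with it for arginine.

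All wounds were on the back of male db/db mice of strain C57BLKS/J, whose leptin receptor gene (Lepr) is mutated and which develop obesity and diabetes. No lean animal was among the 24, so both classes share this genotype. A 6 mm punch wound was made at 16 weeks of age and covered with an alginate bandage, the bandage was renewed on day 3, and wound tissue was taken on day 10, at 17.5 weeks. Bandages held the conditioned medium of cultured primary macrophages polarized to M0 (CM0, 4 libraries), M1 (CM1, 4), M2a (CMA, 5) or M2c (CMC, 5), or were control bandages (Ctrl, 6). The sources used here do not say which stimuli polarized them. The study counts the libraries of a group as mice, and p-values measure the spread between these libraries. Replicate numbers follow the order of the records and carry no other meaning.

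Nos2 (ENSMUSG00000020826, chromosome 11, 78920787 to 78960254 on GRCm38) reached 162.13 CPM in Ctrl 1, 150.37 in CMA 4, 146.63 in CMC 1 and 138.51 in CMC 2. The other Nos2-high wounds had less, with 52.23 CPM in Ctrl 6, 43.22 in CMC 3 and 31.13 in CM0 1. In the 10 Nos2-low wounds the lowest value was 1.55 CPM, the median 2.44 and the highest 5.31, in CM0 4. Thus 4 of the Nos2-high wounds stood together far above the other 3, and the Nos2-high class averaged 103 ± 58.1 CPM (SD, n = 7), against 3.03 ± 1.37 CPM in the Nos2-low class (SD, n = 10). The wound nearest the upper limit from inside was CM0 1 and from outside CM1 3, at 22.52 CPM. At the lower limit CM0 4 lay just inside and Ctrl 3, at 7.22 CPM, just outside.

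**Figure D1:**
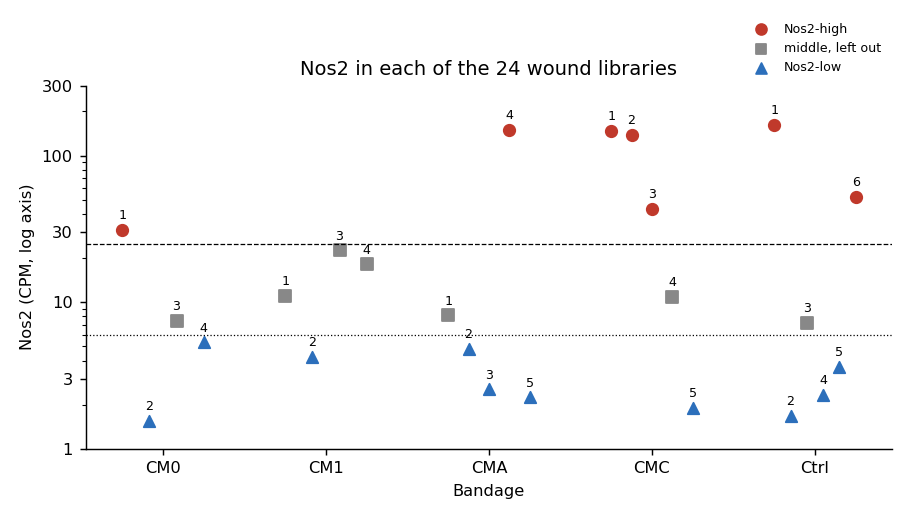
Nos2 in CPM (log axis) in each of the 24 libraries by bandage, with replicate numbers above the points; red circles are Nos2-high, grey squares the middle wounds and blue triangles Nos2-low, and the lines mark 25 and 6 CPM. Nos2-high wounds occur under every bandage except CM1, and 3 of the 7 are under CMC.

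Every bandage except CM1 had wounds of both classes. Under CM0 there was 1 Nos2-high wound against 2 Nos2-low ones, under CMA 1 against 3, under CMC 3 against 1, and under Ctrl 2 against 3. CM1 contributed 0 Nos2-high wounds and 1 Nos2-low wound. With a term for each bandage that lone CM1 library is fitted exactly and adds nothing to the difference between the classes.

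Depth was similar in the classes, with 8561677 to 11985292 counts a library in Nos2-high wounds and 7267879 to 11958892 in Nos2-low wounds. Nos2 itself rested on 337 to 1542 counts in the Nos2-high libraries and on 14 to 57 in the Nos2-low ones. Protein-coding genes held 89.29% to 91.73% of the counts in Nos2-high libraries and 88.08% to 91.39% in Nos2-low libraries. TMM scaling factors ran between 0.948 and 1.038 over the 17 libraries, and the median log2 fold change of all genes was -0.004, with 49.2% of genes above 0.

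Of 18977 genes tested besides Nos2, 184 (0.97%) passed, of which 147 were higher in Nos2-high wounds, 0.775% of the genes, and 37 lower, 0.195% (edgeR quasi-likelihood test, Benjamini-Hochberg adjusted p under 0.05). The higher genes had log2 fold changes between 0.23 and 5.08 with a median of 0.78, and 57 of them differed by more than 2-fold. The lower genes lay between -2.67 and -0.25 with a median of -0.53, and 8 of them differed by more than 2-fold. In 26 of the 147 every Nos2-high library lay above every Nos2-low library, against 32 of all genes (0.169%), and in 4 of the 37 every one lay below, against 7 of all genes (0.0369%). In the 4 bandage groups that held both classes, the mean of all 147 was higher in the Nos2-high wounds and that of all 37 lower, which describes the same libraries that made the calls.

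These counts depend on single libraries. Without CMA 4 none of the genes passed by edgeR, although 2270 had an unadjusted p under 0.05, and without CMC 5 only 6 were higher and 0 lower. Without Ctrl 4 there were 6 higher and 4 lower, without Ctrl 2 there were 13 and 3, without CMC 3 there were 354 and 97, and without CM0 4 there were 405 and 130. Leaving out CMC 1, CMC 2, CMA 2, CM0 2, Ctrl 1, Ctrl 5 or Ctrl 6 gave between 36 and 64 higher and between 8 and 11 lower genes. Without CM0 1 there were 24 lower genes and without CMA 3 there were 58. All 184 genes kept their direction in each of these fits. These fits reuse the libraries that chose the 184, so the kept direction is not separate support. Within the 12 libraries under bandages with medium, edgeR passed 0 genes, with 1538 at an unadjusted p under 0.05.

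Of the genes past the threshold with a mean of at least 1 CPM, Il6 had the smallest p. It encodes interleukin-6, a cytokine of the early wound made by macrophages, fibroblasts and keratinocytes. Il6 (chromosome 5, 30013114 to 30019981) measured 4.38 CPM in CMC 2, 3.68 in Ctrl 1, 3.67 in Ctrl 6, 3.59 in CMC 1, 3.00 in CMA 4, 2.34 in CMC 3 and 2.03 in CM0 1. The Nos2-low wounds had 0.207 CPM at the lowest, 0.353 at the median and 1.03 at the highest, in CM0 4. The classes did not overlap, and the 3 Nos2-high wounds with the least Nos2 were not all the lowest in Il6, since Ctrl 6 was level with Ctrl 1. The log2 fold change was 2.77 ± 0.34 (SE), a 6.8-fold difference with an adjusted p of 0.00579. That adjusted p is lower than it would be with Nos2, which formed the classes, left out of the adjustment. Il6 passed in 16 of the 17 fits that each leave out 1 library, all but the one without CMA 4. The fit without CM1 2 repeats the calls of the main fit, so every called gene passes it, here and in the counts below. Its counts were small, 20 to 44 a library in Nos2-high wounds and 2 to 11 in Nos2-low wounds.

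Because the classes are defined by a gene that NF-κB and AP-1 type factors are known to induce, the promoters of 4 strongly differing genes are shown, from RefSeq on build GRCm38.p6. Each runs from 250 bases before the start of the gene to 50 after it, on the plus strand, at chr5:30012864-30013163 for Il6, chr5:90890995-90891294 for Cxcl1, chr1:150099781-150100080 for Ptgs2 and chr2:52037863-52038162 for Tnfaip6. Capitals mark matches to the κB core GGANNNTCC, to AP-1 TGANTCA or to C/EBP TTNNGCAA, searched on both strands, and in these windows no matches overlap.
Il6: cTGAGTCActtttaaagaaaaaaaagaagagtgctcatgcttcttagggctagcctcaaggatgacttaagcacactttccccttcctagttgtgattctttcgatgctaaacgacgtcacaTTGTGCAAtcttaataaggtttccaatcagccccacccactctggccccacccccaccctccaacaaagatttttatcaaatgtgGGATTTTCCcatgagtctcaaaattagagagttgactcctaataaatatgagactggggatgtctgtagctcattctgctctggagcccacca
Cxcl1: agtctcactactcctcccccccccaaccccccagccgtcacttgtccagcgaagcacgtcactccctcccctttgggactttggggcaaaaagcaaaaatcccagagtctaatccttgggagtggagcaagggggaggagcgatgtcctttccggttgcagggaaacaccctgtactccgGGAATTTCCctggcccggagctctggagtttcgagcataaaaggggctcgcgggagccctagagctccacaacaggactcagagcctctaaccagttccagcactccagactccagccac
Ptgs2: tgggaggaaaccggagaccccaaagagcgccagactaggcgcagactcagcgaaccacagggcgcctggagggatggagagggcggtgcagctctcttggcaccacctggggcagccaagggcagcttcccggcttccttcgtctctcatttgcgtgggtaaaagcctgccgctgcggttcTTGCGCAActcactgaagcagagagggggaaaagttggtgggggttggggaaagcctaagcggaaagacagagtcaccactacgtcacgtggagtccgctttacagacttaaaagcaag
Tnfaip6: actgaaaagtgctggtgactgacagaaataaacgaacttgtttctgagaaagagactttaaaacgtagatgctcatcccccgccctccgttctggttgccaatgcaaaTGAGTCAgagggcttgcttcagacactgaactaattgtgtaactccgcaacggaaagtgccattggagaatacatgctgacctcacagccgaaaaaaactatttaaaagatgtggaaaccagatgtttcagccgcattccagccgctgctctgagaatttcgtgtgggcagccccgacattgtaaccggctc
The Il6 window held all 3 motifs, with the κB match 43 bases, the C/EBP match 128 bases and the AP-1 match 249 bases before the start. Cxcl1 had a κB match 70 bases before the start, Ptgs2 a C/EBP match at 69 bases and Tnfaip6 an AP-1 match at 142 bases. The table held promoters for 104 of the 147 higher genes. Of these promoters 9.63% held the κB core, against 8.62% of all promoters in the table, 9.63% against 7.81% held AP-1, and 13.3% against 10.8% held C/EBP. The TATA box TATAAA, searched in the same way, was in 15.6% against 13.6%. The motifs were thus about as frequent in the promoters of the higher genes as among all promoters.

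Of 14 cytokine genes tested from a list of 25 that can induce Nos2 or act beside it, 2 passed, both higher, and the list's median log2 fold change was 0.52 against 0 over all genes. Over all genes 0.775% were called higher, 0.195% lower and 49.2% had a log2 fold change above 0. These shares belong beside the counts of every list below. Genes of a list can vary together, so its members are not independent. The second called gene was Il33, an alarmin stored in the nuclei of keratinocytes and stromal cells, at 110 ± 29.7 CPM in Nos2-high wounds (SD, n = 7) and 58.2 ± 12 CPM in Nos2-low wounds (SD, n = 10), with a log2 fold change of 0.90 ± 0.19 and an adjusted p of 0.048. Il33 passed in 4 of the 17 fits that leave out a library. Tnf, the classic inducer, had 4.83 ± 1.24 CPM in Nos2-high and 4.07 ± 0.865 CPM in Nos2-low wounds and did not pass (log2 fold change 0.36, 95% interval -0.06 to 0.77, adjusted p = 0.392). Ifng, which encodes interferon-γ, was not tested because its counts were too low, and its highest value in any library was 0.23 CPM.

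Il1b, which encodes interleukin-1β, overlapped between the classes. It had 13.7 CPM at the lowest, 22 at the median and 52.4 at the highest in Nos2-high wounds, against 0.86, 2.47 and 65.7 CPM in Nos2-low wounds. All Nos2-high wounds lay above 9 of the 10 Nos2-low wounds, and the exception was CM0 4 with 65.70 CPM, more than any Nos2-high wound had. The log2 fold change was 3.17 (95% interval 1.41 to 4.92) with an adjusted p of 0.0846. Without CM0 4, a library singled out after its values were seen, it was 3.92, with an edgeR adjusted p of 3.08e-06. Il1b passed in 2 of the 17 fits that each leave out 1 library, and its largest adjusted p among them was 0.285.

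Among 25 receptors and sensors of cytokines and microbial products, 4 were higher, none was lower and the median was 0.17. Osmr, the oncostatin M receptor chain, had 114 ± 16.1 CPM in Nos2-high wounds and 80.5 ± 5.97 CPM in Nos2-low wounds, with no overlap (log2 fold change 0.52 ± 0.09, adjusted p = 0.0217). Il17ra, the shared receptor chain of IL-17 cytokines, was higher by a log2 fold change of 0.54 ± 0.10, and Irak3, a brake on Toll-like and IL-1 receptor signalling, by 0.62 ± 0.12. Cd14, the coreceptor for lipopolysaccharide, had 51.0 ± 19.9 CPM in Nos2-high wounds and 19.8 ± 9.04 CPM in Nos2-low wounds (log2 fold change 1.53 ± 0.32, adjusted p = 0.0475). It passed in 4 of the 17 fits that leave out a library.

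Of the chemokine list 3 of 19 genes were higher, 0 were lower and the median was 0.70. The 3 are ligands of the neutrophil receptor CXCR2, and they lie close together on chromosome 5 with Cxcl2 and Cxcl5, from Cxcl5 at 90759360 to Cxcl2 at 90905938. Cxcl1 measured between 4.34 and 17.2 CPM in Nos2-high wounds, with a median of 7.50, and between 0.251 and 3.45 CPM in Nos2-low wounds, with a median of 0.644. No Nos2-low wound reached the lowest Nos2-high value, and CM0 4 came nearest. The log2 fold change of Cxcl1 was 3.25 ± 0.56 (adjusted p = 0.025), and it was 3.02 without Ctrl 1 and 3.93 without CM0 1.

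Cxcl3 had 3.97, 14.5 and 56.0 CPM as lowest, median and highest in Nos2-high wounds, against 0, 0.146 and 8.57 CPM in Nos2-low wounds. Its classes overlapped through CM0 4 alone, at 8.57 CPM. The log2 fold change was 5.08 ± 1.08 (adjusted p = 0.048), between 4.46 without Ctrl 1 and 7.42 without CM0 1, and Cxcl3 passed in 4 of the 17 fits that leave out a library. Ppbp, the precursor of platelet basic protein, was higher by a log2 fold change of 3.64 ± 0.78 (adjusted p = 0.048), with 2.69 without Ctrl 1 and 4.51 without CM0 1. It passed in 5 of those 17 fits. Cxcl2 and Cxcl5 had log2 fold changes of 3.91 ± 0.87 and 4.39 ± 0.96 with adjusted p of 0.0574 and 0.0529. In both, CM0 4 was far above the other Nos2-low wounds, at 31.68 CPM of Cxcl2 and 41.47 CPM of Cxcl5. Without CM0 4 the log2 fold changes were 4.70 for Cxcl2 and 5.30 for Cxcl5, with adjusted p of 0.00064 and 0.000849. Each passed in 3 of the 17 fits that leave out a library, with largest edgeR adjusted p of 0.233 and 0.249. Ccl2, which attracts monocytes, had 19.4 ± 9.25 CPM in Nos2-high wounds and 10.8 ± 7.54 CPM in Nos2-low wounds and did not pass (adjusted p = 0.116).

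**Figure D2:**
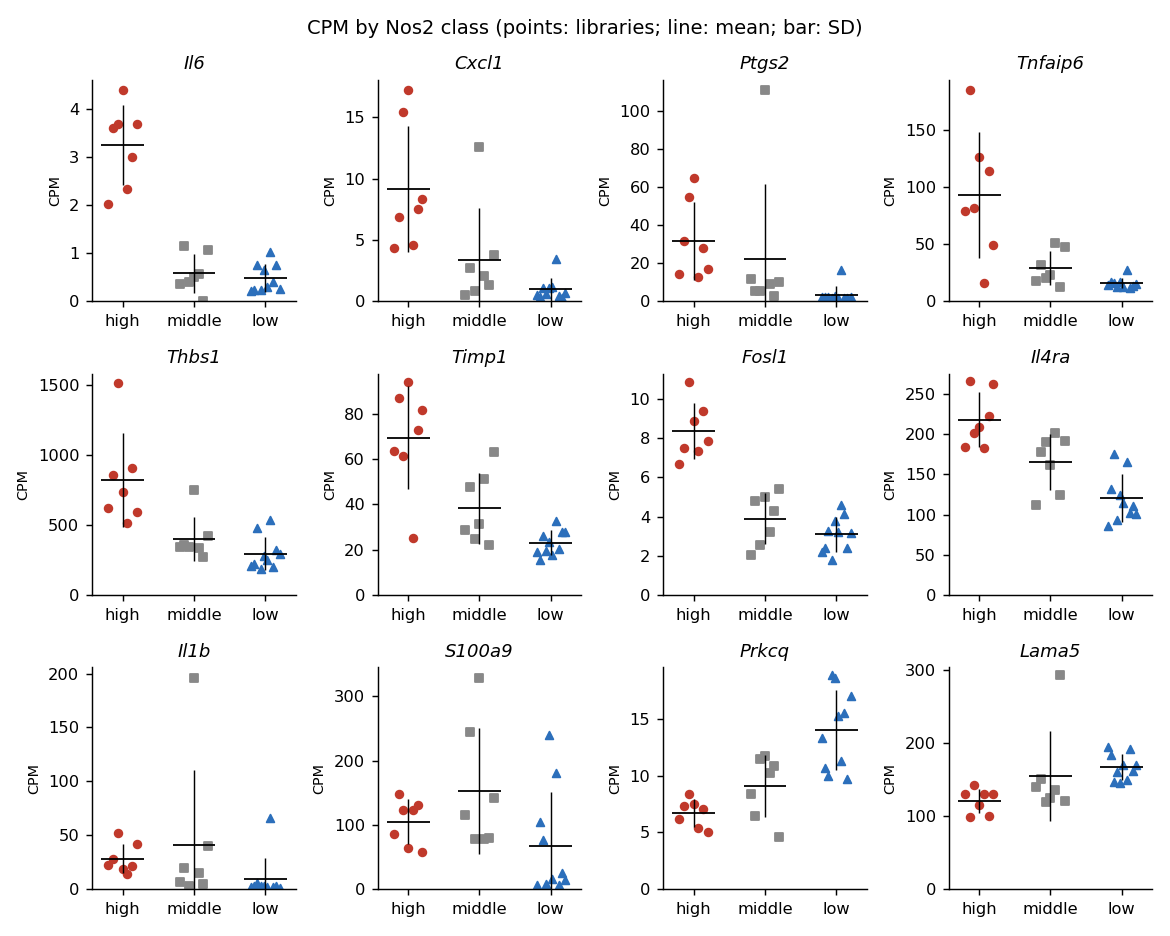
CPM of 12 genes in the Nos2-high, middle and Nos2-low libraries (points), with the mean (line) and SD (bar). Il6, Fosl1 and Il4ra have every Nos2-high library above every Nos2-low one, while the Nos2-low library CM0 4 reaches 65.70 CPM of Il1b.

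Among 24 genes for NF-κB subunits and their feedback, 4 were higher, 0 lower and the median was 0.19. Ptgs2, which encodes the inducible cyclooxygenase of prostaglandin synthesis, had 12.6, 27.8 and 64.5 CPM as lowest, median and highest in Nos2-high wounds, against 1.51, 2.14 and 16.5 CPM in Nos2-low wounds. Again CM0 4 was the single Nos2-low wound to overlap, at 16.49 CPM. The log2 fold change was 3.42 ± 0.65 (adjusted p = 0.0354), with 3.0 without Ctrl 1 and 4.10 without CM0 1. Ptgs2 passed in 6 of the 17 fits that leave out a library. Socs3, an inhibitor of IL-6 family signalling, was higher by a log2 fold change of 1.52 ± 0.26 and Ier3, an early response gene, by 1.58 ± 0.30. Nfkbia, which encodes the inhibitor IκBα and is itself an NF-κB target, had 88.5 ± 16.5 CPM in Nos2-high wounds and 58.7 ± 7.73 CPM in Nos2-low wounds without overlap (log2 fold change 0.65 ± 0.13, adjusted p = 0.0358). It passed in 5 of those 17 fits. Tnfaip3 and Nfkbiz, further feedback genes, had log2 fold changes of 0.39 and 0.45 with adjusted p of 0.123 and 0.11.

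None of 23 other genes of nitric oxide and arginine metabolism passed by edgeR, and their median log2 fold change was 0.10. Arg1, the liver-type arginase that macrophages use in repair, had 118 to 701 CPM in Nos2-high wounds with a median of 311, against 28.3 to 203 CPM in Nos2-low wounds with a median of 86.9. All 7 Nos2-high wounds lay above the Nos2-low median, and the classes overlapped. The log2 fold change of Arg1 was 2.28 (95% interval 1.01 to 3.55) with an adjusted p of 0.0862. It was 1.63 without Ctrl 1 and 2.46 without CM0 4, where the adjusted p was 0.0323. Arg1 passed in that 1 alone of the 17 fits that leave out a library, and its largest edgeR adjusted p was 0.265. Levels of Arg1 and Nos2 can come from different cells of 1 wound, which bulk tissue does not separate.

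Gch1, the first enzyme of tetrahydrobiopterin synthesis and so of the cofactor of the synthase, had a log2 fold change of 0.50 (95% interval 0.06 to 0.95, adjusted p = 0.266). Ass1, which regenerates arginine from citrulline, had 0.41 (0.03 to 0.80, adjusted p = 0.29), and the arginine transporter Slc7a2 had 0.20 (-0.10 to 0.50, adjusted p = 0.523). Arg2, the mitochondrial arginase, had 3.19 ± 1.94 CPM in Nos2-high and 2.71 ± 1.12 CPM in Nos2-low wounds, and its log2 fold change of 0.31 turned to -0.09 without Ctrl 1. Ddah2, which clears a natural inhibitor of the synthase, had 0.31 ± 0.08 (adjusted p = 0.0873), and Pde5a, which degrades the cyclic GMP that nitric oxide raises, had 0.36 ± 0.10 (adjusted p = 0.104).

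Of 30 interferon response genes tested, none passed by edgeR in either direction and the median log2 fold change was -0.03. Their summed level ran from 434 to 554 CPM in Nos2-high wounds, with a median of 500.3, and from 353 to 791 CPM in Nos2-low wounds, with a median of 560. Irf1 had 39.3 ± 6.22 CPM in Nos2-high and 40.9 ± 7.07 CPM in Nos2-low wounds (log2 fold change -0.04, 95% interval -0.22 to 0.13).

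Several called genes act in the provisional matrix and the control of proteases. Timp1, an inhibitor of matrix metalloproteinases, had 69.3 ± 22.7 CPM in Nos2-high wounds and 23 ± 5.5 CPM in Nos2-low wounds (log2 fold change 1.60 ± 0.26, adjusted p = 0.0224). CMC 3, at 25.35 CPM, was the single Nos2-high wound within the Nos2-low range. Of 24 proteases and inhibitors 2 were higher, 0 lower and the median was 0.32. The matrix metalloproteinase genes Mmp13 and Mmp9 had log2 fold changes of 0.53 and 1.21 with adjusted p of 0.566 and 0.251. In the matrix list 4 of 28 genes were higher, 0 lower and the median was 0.14. Thbs1, which encodes the matricellular protein thrombospondin 1, had 823 ± 338 CPM in Nos2-high wounds and 298 ± 119 CPM in Nos2-low wounds (log2 fold change 1.66 ± 0.29, adjusted p = 0.0294). Fn1, fibronectin, averaged 3720 ± 737 CPM in Nos2-high wounds and 2200 ± 467 CPM in Nos2-low wounds (0.82 ± 0.15, adjusted p = 0.0294). The collagen-modifying enzymes P4ha1 and Plod2 were higher by 0.76 ± 0.11 and 1.34 ± 0.24, while the fibrillar collagen gene Col3a1 had 0.26 (95% interval 0.02 to 0.49, adjusted p = 0.275). Acta2, a marker of myofibroblasts, had 189 ± 39.6 CPM in Nos2-high and 166 ± 48.5 CPM in Nos2-low wounds and did not pass (0.25, -0.18 to 0.69), and it was -0.01 among the bandages with medium.

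Called genes of hyaluronan synthesis are given together here, a grouping made after their values were seen. Hyaluronan is a large matrix sugar of early wounds. Has2, a hyaluronan synthase, had 21 ± 6.5 CPM in Nos2-high wounds and 9.34 ± 3.85 CPM in Nos2-low wounds (log2 fold change 1.24 ± 0.19, adjusted p = 0.02). Ugdh, which makes the UDP-glucuronate that the synthases use, had 100 ± 27.8 CPM in Nos2-high and 49.3 ± 4.37 CPM in Nos2-low wounds (1.07 ± 0.17, adjusted p = 0.02). Has1, Uap1 and Tnfaip6 were added to these for their values, so no count over the 5 is a result. Has1, another synthase, was higher by 1.80 ± 0.32 without overlap, and Uap1, which makes the other sugar donor, by 0.95 ± 0.18 without overlap. Tnfaip6, whose protein binds and modifies hyaluronan, reached 185.81 CPM in CMC 1, with a lowest value of 15.7 and a median of 81.6 in Nos2-high wounds, against 11.3, 14.9 and 27.2 CPM as lowest, median and highest in Nos2-low wounds. All Nos2-high wounds except CMC 3 were above the Nos2-low range (log2 fold change 2.54 ± 0.41, adjusted p = 0.0217).

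Among 27 genes of hypoxia and glycolysis, 6 were higher, 0 lower, 26 had a log2 fold change above 0 and the median was 0.51. The shares over all genes were 0.775% called higher and 49.2% above 0. Vegfa, the main angiogenic growth factor, had 128 ± 49.6 CPM in Nos2-high wounds and 60.6 ± 11.6 CPM in Nos2-low wounds (log2 fold change 1.06 ± 0.21, adjusted p = 0.0373). Slc16a3, which exports lactate, was higher by 1.41 ± 0.26, and P4ha1 is a member too. Adm, which encodes adrenomedullin, was higher by 1.0 ± 0.22, and the glycolytic enzymes Gpi1 and Eno1 by 0.34 ± 0.07 and 0.65 ± 0.14. Eno1 has a near-identical copy in the mouse genome, so its count is less certain. Hif1a, the oxygen-regulated transcription factor subunit, had 212 ± 15.7 CPM in Nos2-high wounds and 158 ± 29.2 CPM in Nos2-low wounds, with an adjusted p of 0.0638. Summed over the list, the Nos2-high wounds had 4264 to 6466 CPM and the Nos2-low wounds 3765 to 4854 CPM.

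**Figure D3:**
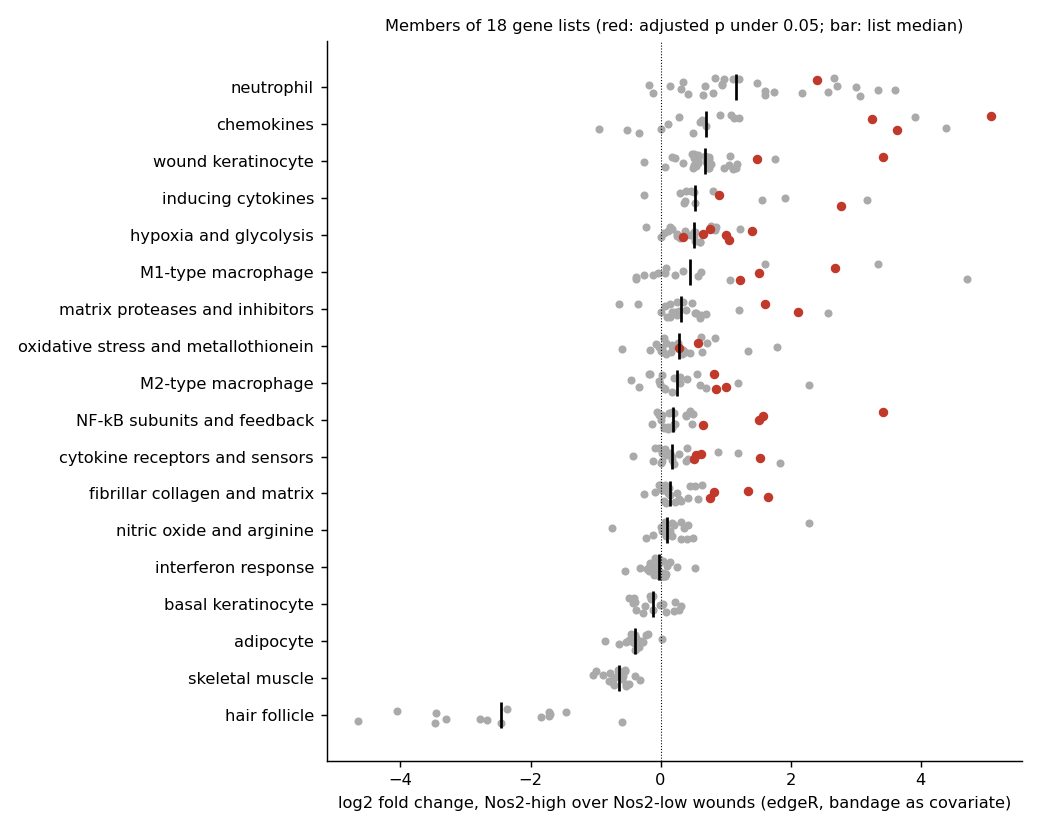
Log2 fold change of Nos2-high over Nos2-low wounds (x axis) for the tested members of 18 gene lists (y axis), with called genes in red, others in grey and the list median as a bar. The medians run from 1.16 for the neutrophil list to -2.45 for the hair follicle list, and neither the interferon nor the hair follicle list holds a called gene.

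Nos2 is often read as a mark of M1-type macrophages, so macrophage genes were described next. In bulk tissue fewer cells of a type and less RNA per cell cannot be told apart, and this holds for every cell type below. Of 22 pan-macrophage genes 1 was higher, 0 lower and the median was 0.16. That gene, Itgam, encodes the integrin CD11b, which neutrophils carry too (log2 fold change 0.79 ± 0.17, adjusted p = 0.0416). The summed list ran from 3792 to 6067 CPM in Nos2-high wounds, with a median of 5019, and from 2833 to 5686 CPM in Nos2-low wounds, with a median of 4241. Adgre1, which encodes the macrophage antigen F4/80, had 196 ± 50.1 CPM in Nos2-high and 177 ± 46.5 CPM in Nos2-low wounds (log2 fold change 0.10, 95% interval -0.33 to 0.53), and its log2 fold change was -0.06 without Ctrl 6.

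Of 18 M1-type genes 3 were higher, 0 lower and the median was 0.46, and of 22 M2-type genes 3 were higher, 0 lower and the median was 0.25. Among the M1-type genes, Tnfrsf9, a costimulatory receptor of the TNF receptor family, had 4.53, 15.6 and 48.6 CPM as lowest, median and highest in Nos2-high wounds, against 1.98, 2.75 and 4.08 CPM in Nos2-low wounds. The classes did not overlap (log2 fold change 2.69 ± 0.48, adjusted p = 0.0301), and the log2 fold change was 2.07 without Ctrl 1. Cd80, a ligand for T cell costimulation, was higher by 1.22 ± 0.23, and Socs3, named above, is the third. Among the M2-type genes, Il4ra, the IL-4 receptor chain that alternative activation needs, had 182, 208 and 266 CPM as lowest, median and highest in Nos2-high wounds, against 86.5, 113 and 176 CPM in Nos2-low wounds. It too did not overlap (1.0 ± 0.16, adjusted p = 0.0204). F13a1, a transglutaminase subunit abundant in resident macrophages, was higher by 0.85 ± 0.18 and passed in 4 of the 17 fits that leave out a library. Fn1 is the other. Mrc1, the mannose receptor CD206, had 407 ± 99.5 CPM in Nos2-high and 344 ± 85.2 CPM in Nos2-low wounds and did not pass (adjusted p = 0.327).

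Of 28 neutrophil genes tested, 1 was higher, 0 were lower, 26 had a log2 fold change above 0 and the median was 1.16. As a base, 49.2% of all genes were above 0 and 0.775% were called higher. The called gene, Clec4e, encodes a receptor for microbial glycolipids that macrophages also express (2.41 ± 0.52, adjusted p = 0.048, and called in 4 of the 17 fits without 1 library). The summed neutrophil list ran from 434 to 1184 CPM in Nos2-high wounds, with a median of 794, and from 214 to 1362 CPM in Nos2-low wounds, with a median of 363. The Nos2-low wounds CMA 3 and CM0 4, at 1362.5 and 1284.5 CPM, were above all Nos2-high wounds, while CMC 2 and Ctrl 6 were at 445.4 and 433.5 CPM with Nos2 at 138.51 and 52.23 CPM. S100a9, an abundant granulocyte protein, had 105 ± 35.1 CPM in Nos2-high wounds and 67.5 ± 83.4 CPM in Nos2-low wounds (1.75, 95% interval -0.22 to 3.73, adjusted p = 0.377). For S100a9 the log2 fold change was 2.51 without CM0 4 and 2.27 without CM0 1, 0.81 among the bandages with medium and 0.62 with no bandage term, and limma gave 2.23 with an adjusted p of 0.048. Cxcr2, the receptor of the chemokines above, had 7.15 ± 3.23 CPM in Nos2-high and 5.69 ± 5.34 CPM in Nos2-low wounds (0.95, -0.46 to 2.37), and -0.08 among the bandages with medium. No gene of the neutrophil list was at 0 in every library. The part of neutrophil content in the higher chemokine and cytokine genes was not tested.

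**Figure D4:**
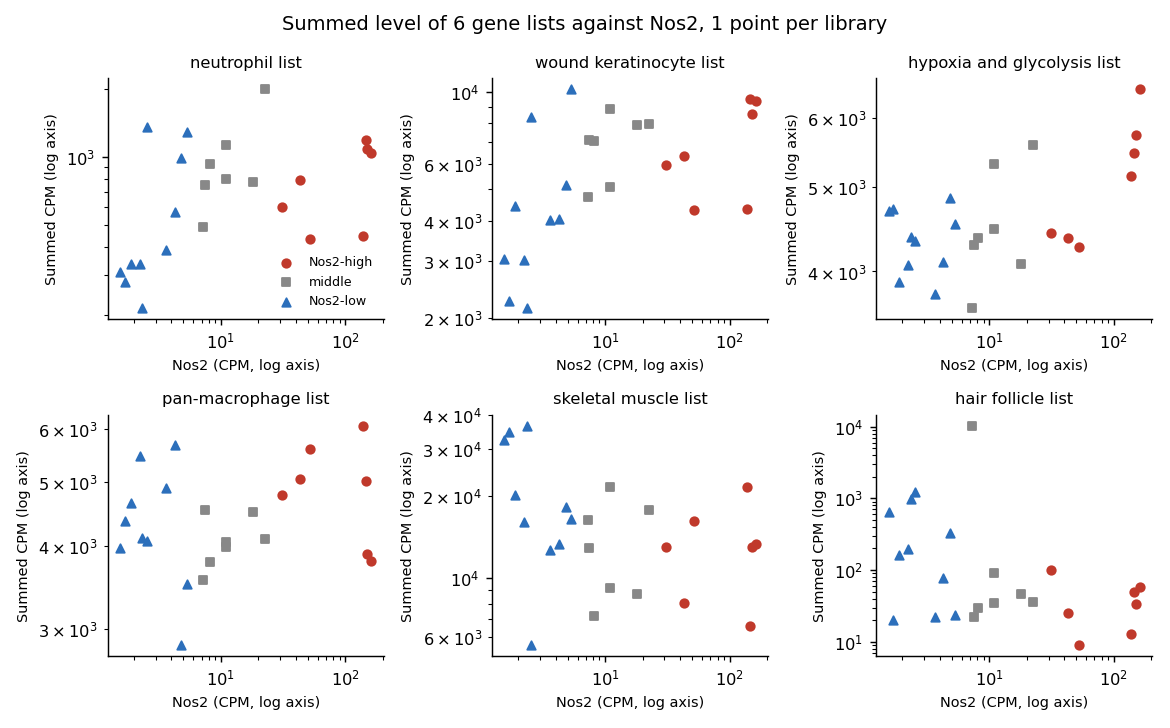
Summed CPM of 6 gene lists (y axes, log) against Nos2 in CPM (x axes, log), 1 point per library, with Nos2-high in red, middle in grey and Nos2-low in blue. The 2 Nos2-low wounds CMA 3 and CM0 4 exceed all Nos2-high wounds in the neutrophil list, and the Nos2-high wounds have 9.01 to 100 CPM of the hair follicle list.

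In the wound keratinocyte list 2 of 31 genes were higher, 0 lower, 30 were above 0 and the median was 0.69. Among all genes 0.775% were called higher and 49.2% were above 0. The called genes were Fosl1, an AP-1 subunit of migrating epidermis and other cells, at 8.34 ± 1.43 CPM in Nos2-high wounds and 3.09 ± 0.897 CPM in Nos2-low wounds without overlap (log2 fold change 1.48 ± 0.21, adjusted p = 0.0109), and Ptgs2. Krt6a and Krt16, keratins that the epidermis makes on injury and whose reads can be shared with close relatives, had log2 fold changes of 1.18 and 0.75 with adjusted p of 0.357 and 0.583. The summed list ran from 4324 to 9528 CPM in Nos2-high wounds and from 2142 to 10176 CPM in Nos2-low wounds, where CM0 4 was highest. None of 19 basal keratinocyte genes passed by edgeR, with a median of -0.12, and Krt5 had 1060 ± 205 CPM in Nos2-high and 1430 ± 243 CPM in Nos2-low wounds (-0.41, 95% interval -0.68 to -0.15, adjusted p = 0.123).

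Wound tissue can also hold hair follicles, muscle and fat. The counts of genes above 0 given here stand beside 49.2% of all genes. All 15 tested hair follicle genes had log2 fold changes below 0 with a median of -2.45, and none passed by edgeR. Their sum ran from 9.01 to 100 CPM in Nos2-high wounds with a median of 33.9, against 20.3 to 1220 CPM in Nos2-low wounds with a median of 179. Every Nos2-high wound was under the Nos2-low median, but 4 of the 10 Nos2-low wounds, with 20.3, 22.1, 23.3 and 77.4 CPM, were within the Nos2-high range. The middle wound Ctrl 3, in neither class, had 10169.4 CPM of this list. The hair shaft and root sheath genes Tchh and Krt71 had 8.51 ± 4.04 and 4.71 ± 6.13 CPM in Nos2-high wounds, against 95.3 ± 117 and 99.3 ± 125 CPM in Nos2-low wounds, with adjusted p of 0.172 and 0.206. All 20 skeletal muscle genes were below 0 with a median of -0.64, and the sum was 6623 to 21656 CPM in Nos2-high wounds and 5623 to 36434 CPM in Nos2-low wounds. Of 18 adipocyte genes 1 was above 0, with a median of -0.40, and of 9 melanocyte genes 2 were, with a median of -1.05. All 28 ribosomal protein genes were above 0 with a median of 0.14, and 2 of 11 mitochondrial genes were, with a median of -0.17; none of either list passed by edgeR. The part of the tissue taken in the differences between the classes was not tested.

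The 15 genes with the smallest p among the higher ones held several with small differences. Choice by p favours genes with little spread within the classes. Mthfd1l, a mitochondrial enzyme of one-carbon metabolism, had 34.6 ± 4.23 CPM in Nos2-high wounds and 22.5 ± 2.96 CPM in Nos2-low wounds (log2 fold change 0.67 ± 0.09, adjusted p = 0.00896). Pde8a, which degrades cyclic AMP, had 63.1 ± 5.36 CPM in Nos2-high and 47.7 ± 3.78 CPM in Nos2-low wounds (0.46 ± 0.06, adjusted p = 0.0109). Neither gene overlapped between the classes, although the difference was under 2-fold. In the middle wounds Pde8a ran from 33.5 to 76.4 CPM, beyond the range of both classes. Rbpj, the DNA-binding partner of Notch, was higher by 0.51 ± 0.07, and Me2, a mitochondrial malic enzyme, by 0.48 ± 0.08. Metrnl, a secreted protein of macrophages and other cells, was higher by 0.45 ± 0.07 and Nupr1, a stress-induced chromatin protein, by 0.71 ± 0.11. Sgms2 and B4galt5, which act in sphingolipid and glycolipid synthesis, were higher by 0.80 ± 0.13 and 0.61 ± 0.10. The calcium channel gene Cacna1d and the magnesium transporter gene Slc41a2 were higher by 0.61 ± 0.10 and 0.53 ± 0.09. Over these 8, adjusted p ran from 0.0138 to 0.0204.

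Oxidant defence and other signals added a few. Of 28 genes of oxidative stress and metallothioneins 2 were higher, 0 lower and the median was 0.28. Ncf1, a subunit of the phagocyte oxidase that makes superoxide, was higher by 0.57 ± 0.11, and Nfe2l2, the regulator of antioxidant genes, had 90.2 ± 5.19 CPM in Nos2-high wounds and 74.5 ± 5.82 CPM in Nos2-low wounds (log2 fold change 0.29 ± 0.06, adjusted p = 0.0373). Hmox1, a target of Nfe2l2, had 301 ± 55.9 CPM in Nos2-high and 192 ± 48.1 CPM in Nos2-low wounds and did not pass (adjusted p = 0.135). Klf2, a transcription factor of endothelium and myeloid cells, was the 1 of 16 immediate early genes called, higher by 1.02 ± 0.19. Of 21 fibroblast genes 2 were higher, 0 lower and the median was 0.25: Pdpn, which encodes podoplanin, by 0.93 ± 0.18, and the matricellular growth factor modulator Ccn2 by 0.67 ± 0.14. Pdpn is also the gene called higher of 8 lymphatic endothelial genes, of which Reln, encoding reelin, was lower (-0.53 ± 0.11, adjusted p = 0.0385).

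Among the genes lower in Nos2-high wounds, Prkcq, which encodes protein kinase C theta, known for T cell receptor signalling and also present in skeletal muscle, had 5.01, 7.04 and 8.41 CPM as lowest, median and highest in Nos2-high wounds, against 9.67, 14.3 and 18.8 CPM in Nos2-low wounds. The classes did not overlap (log2 fold change -1.12 ± 0.17, adjusted p = 0.0172), and Prkcq passed in 15 of the 17 fits without 1 library. Lama5, a laminin chain of epidermal and vascular basement membranes, had 98.2 to 142 CPM in Nos2-high wounds and 145 to 194 CPM in Nos2-low wounds (-0.46 ± 0.08, adjusted p = 0.0225). Every Nos2-high wound was below every Nos2-low wound, by a narrow gap between Ctrl 1 at 141.52 CPM and CMA 3 at 145.10 CPM.

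Igfbp2, which binds insulin-like growth factors, had 16.2 ± 3.96 CPM in Nos2-high wounds and 28.3 ± 6.04 CPM in Nos2-low wounds (log2 fold change -0.91 ± 0.14, adjusted p = 0.0172). Ltb4r2, a leukotriene and fatty acid receptor of keratinocytes, was lower at -0.74 ± 0.12, and Plxnb1, a semaphorin receptor, at -0.57 ± 0.11. Nkd2, an inhibitor of Wnt signalling, was lower at -0.56 ± 0.09 and Ltbp4, which anchors latent TGF-β to elastic matrix, at -0.39 ± 0.08. Chst3, a chondroitin sulfotransferase, was lower at -0.74 ± 0.15. Sln, which encodes sarcolipin, a regulator of the muscle calcium pump, was lower at -1.78 ± 0.35, with 80.64 CPM in the Nos2-low wound CMC 5 alone. Myo18a, Nrbp2 and Usp20 had -0.32, -0.49 and -0.35. Over these 9 genes besides Igfbp2, adjusted p ran from 0.0204 to 0.0368. The middle wound Ctrl 3, with 10169.4 CPM of the hair follicle list, exceeded every wound of both classes in some lower genes. It had 69.02 CPM of Igfbp2, 65.52 of Nkd2, 163.85 of Plxnb1, 238.88 of Myo18a and 293.13 of Lama5. It did not exceed them in Prkcq, Ltb4r2, Ltbp4, Chst3, Sln, Nrbp2 or Usp20. The part of hair follicle content in the lower genes was not tested.

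The 7 middle wounds gave a look at the called genes in libraries that did not form the classes. Their Nos2 ran from 7.22 to 22.52 CPM. In these wounds the slope on log2 Nos2 had the sign of the class difference in 171 of the 184 called genes (92.9%), 139 of the 147 higher and 32 of the 37 lower ones, against 61% of all 18977 genes. Called genes can vary together over the same 7 wounds, so these signs are not 184 separate checks. The share was 82.6% without CM1 4 and 94% without CM1 3. Their 3 highest Nos2 values, 22.52, 18.11 and 10.98 CPM, were all from CM1 wounds. With so few libraries no bandage term was fitted, so this slope does not tell Nos2 and the CM1 bandage apart.

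By that slope 16 genes passed with edgeR, all higher with Nos2 (0.0843% of genes), and 0 lower, and 7 of them were among the 184. The 7 include Cxcl1, Cxcl3, Ppbp, Cd14, Clec4e and Sgms2. Per doubling of Nos2, Cxcl1 was higher by 2.18 on the log2 scale, Cxcl3 by 3.69 and Clec4e by 2.56. The 16 also hold Il1b at 3.25 and Cxcl2 at 4.61. They hold Acod1, which makes itaconate in activated macrophages, at 3.69 and Trem1, an amplifying receptor of neutrophils and monocytes, at 2.78. Il1b, Cxcl2, Acod1 and Trem1 did not pass between the classes and are not among the 184. Without CM1 3 none passed by edgeR, with 1976 genes at an unadjusted p under 0.05.

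CM1 3 held 367.62 CPM of Cxcl2, 196.04 of Il1b, 110.77 of Ptgs2 and 81.90 of Acod1, more than any Nos2-high wound did. The same wound had 0.51 CPM of Il6, within the Nos2-low range. Its Tnf, at 24.77 CPM, was also the highest of the 24 libraries. CM0 4 showed a like split, with 65.70 CPM of Il1b and 39.98 of Acod1 beside 1.03 CPM of Il6 and 5.31 CPM of Nos2. In these 2 wounds high Il1b, Cxcl2 and Acod1 thus occurred without Il6 in the Nos2-high range.

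**Figure D5:**
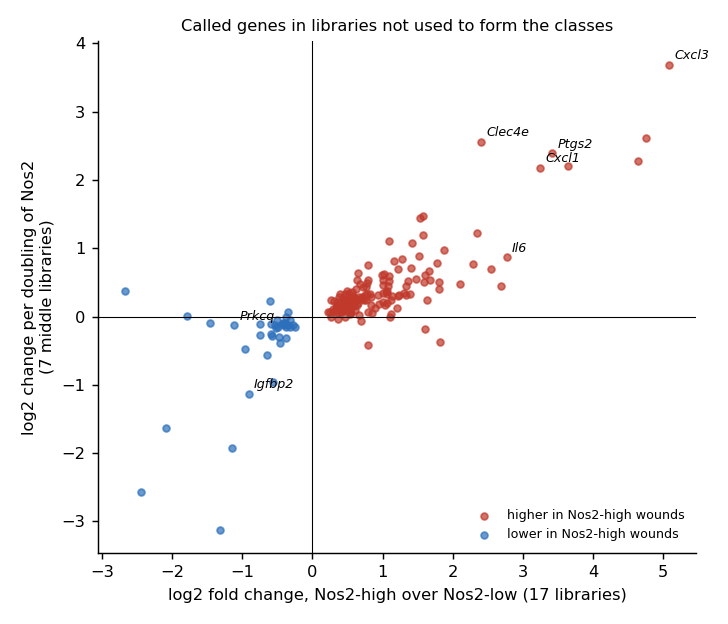
Log2 fold change of Nos2-high over Nos2-low wounds in the 17 class libraries (x axis) against the log2 change per doubling of Nos2 in the 7 middle libraries (y axis), 1 point per called gene, red for higher and blue for lower. Of the 184 genes 171 lie in the 2 quadrants where the signs match.

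Whether the class difference was of another size under bandages with medium than under control bandages was tested as an interaction. No gene passed by edgeR, the lowest adjusted p was 1, and 361 genes (1.9%) had an unadjusted p under 0.05. With the DESeq2 size factors 0 genes passed as well. The control bandages held 2 Nos2-high and 3 Nos2-low wounds.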

How the data were processed

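RNA sequencing counts of 24 wound libraries were analysed, 1 table of whole-number gene counts per library as the authors deposited it, with no normalization. Per the labels' protocols, total RNA from snap-frozen day 10 wounds was depleted of ribosomal RNA with Ribo-Zero and made into NEBNext Ultra libraries, a kit that does not mark strand, so a gene and an antisense partner cannot be told apart. Per the submitters' processing notes, bcl2fastq 2.17, FastQC, cutadapt, STAR, featureCounts, DESeq2 and the build GRCm38 were used; the annotation release was not stated in what was read here. The files list 54232 genes, of which 54079 had a symbol, with names and positions from GENCODE M21 (GRCm38).

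A script formed the classes from Nos2 CPM (25 or more, under 6). Genes were filtered with filterByExpr of edgeR over all 24 libraries by bandage group, which left 18978 with Nos2, and scaled by TMM. A robust quasi-likelihood model with terms for bandage group and class was fitted to the 17 libraries, with 11 residual degrees of freedom. The p-values were adjusted by Benjamini-Hochberg over all 18978 genes, Nos2 among them, against 0.05. Counting Nos2 lowers the adjusted p of the other genes, most for those with the smallest p. Log2 fold changes are Nos2-high over Nos2-low from this model (prior count 0.125), with SE and 95% intervals derived from its F statistic, and values ± SD are unscaled CPM. Further fits tested the class by medium interaction and the slope on log2 Nos2 in the 7 middle libraries. On simulated counts, 200 of the 18978 genes fitted were changed. The class comparison recovered 52.2% of genes changed 1.5-fold, 76.1% of those changed 2-fold and 93.9% of those changed 4-fold. It made 4 false calls in that fit. Whether these shares hold for the measured wounds was not tested. The numbers of counts set the precision, and genes under about 1 CPM rest on few reads.

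Named genes are a panel of 45 genes, the 15 higher and 12 lower genes with the smallest p at a mean of at least 1 CPM, and, from each of 34 lists, the 3 lowest-p members, the lists holding 741 entries in all. Symbols matched 733 of these entries, synonyms 6 more, and 2 found no match. Cd14, Plod2, Gpi1, Eno1, Adm, Has1, Uap1 and Tnfaip6, and the genes named under other observations, were chosen after their values were seen. A few genes that these rules name are not reported here. The classes, the lists and the panel were chosen with earlier results of these data known, so no list is independent support. Alternatives were other scaling, no low-count filter, no bandage term, other class limits, other sets of libraries, DESeq2 1.42.0 and limma 3.58.1 with voom and quality weights, besides leaving out each library. Other tools were R 4.3.3, edgeR 4.0.16, pandas 2.3.3 and matplotlib 3.10.9.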

Additional observations from a re-analysis of the deposited data

Results flagged for a closer look

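In 23 of 218 combinations of gene and class examined, 1 library stood apart by Dixon's criterion on log2(CPM + 1), where chance alone gives about 1 in 20. None of these was followed by a test of a cause.

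In 10 of them the library is CM0 4, as the highest Nos2-low wound. It had 65.7 CPM of Il1b where the other Nos2-low wounds reached 5.1, 39.98 of Acod1 where they reached 2.34, 16.49 of Ptgs2 where they reached 2.76, and 16.4 of Clec4e where they reached 3.43. It also had 3.45 CPM of Cxcl1, 8.57 of Cxcl3, 8.01 of Trem1, 27.21 of Tnfaip6, 19.57 of Has2 and 8.11 of Cd80, against at most 1.17, 1.42, 1.34, 17.06, 11.39 and 4.77 in the others.

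CMC 3 was the lowest Nos2-high wound in 5 genes. It had 25.35 CPM of Timp1, 4.67 of Cd80, 47.89 of Pdpn, 5.61 of Cxcl5 and 11.21 of Ptgis, where the other Nos2-high wounds had at least 61.4, 8.31, 82.52, 27.06 and 27.2.

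Ctrl 1 was the highest Nos2-high wound for Cxcl2, at 78.33 CPM beside at most 29.93 in the others, and for Adm, at 21.55 beside 10.73. CMC 2 was the lowest of the class for Tnf, at 2.3 CPM, and Ctrl 6 for Trp63, a transcription factor of basal keratinocytes, at 89.28 CPM. Among Nos2-low wounds CM1 2 was the highest for Rbpj, at 135.38 CPM, and CMC 5 for Sln, at 80.64 CPM. Low extremes in that class were CMA 3 for Ltbp4, at 79.96 CPM, and Ctrl 5 for Ackr3, at 11.31 CPM.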

How the results depend on the processing

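The count of genes higher in Nos2-high wounds, 147 by edgeR, was 95 with no low-count filter, 367 with no bandage term, 282 with all 24 libraries and a middle class, 510 with Nos2 as a continuous term over 24 libraries, 388 by DESeq2 and 607 by limma. It was 0 among bandages with medium, where DESeq2 and limma were not run. The count of lower genes, 37, was 111 with no bandage term, 89 with the continuous term, 143 by DESeq2, 244 by limma, 12 with class limits of 20 and 8 CPM, and 0 among bandages with medium. Scaling by DESeq2 size factors gave 142 and 38. Leaving out 1 library at a time gave 0 (without CMA 4) to 405 (without CM0 4) higher genes and 0 to 130 lower genes. The causes of these shifts were not tested. All 184 genes kept their direction in every one of the 26 other settings in which they were fitted. Those settings reuse the libraries that chose the 184, so a kept sign was likely beforehand and is not separate support. The share with the same sign in the middle libraries stayed between 82.6% and 94% with each of them left out.

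Of the 109 genes named, 4 changed direction in some setting. Cxcr2 was -0.08 and Acta2 -0.01 on the log2 scale among bandages with medium. Arg2 ran from -0.09 to 0.48 and Adgre1 from -0.06 to 0.23 with each library left out. None of these 4 passed by edgeR. No paired analysis was possible because the labels give no replicate numbers. Genes under 1 CPM, such as Il6 and Cxcl1 in Nos2-low wounds, rest on few counts, which limits their fold changes.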

Other observations

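Further genes past the threshold, named after their values were seen, extend what stands above. Ptgis, which makes prostacyclin from the product of Ptgs2, had 35.5 ± 14.9 CPM in Nos2-high wounds (SD, n = 7) and 10.6 ± 4.72 CPM in Nos2-low wounds (SD, n = 10), a log2 fold change of 1.77 ± 0.34 (SE, edgeR adjusted p = 0.0354). Tnfsf9, the ligand of Tnfrsf9, had 2.29 ± 1.09 CPM in Nos2-high and 0.868 ± 0.338 CPM in Nos2-low wounds (1.59 ± 0.28, adjusted p = 0.0224). The chemokine receptor gene Ccr1 was higher by 1.22 ± 0.25, and Ackr3, a scavenging receptor for CXCL12, by 1.80 ± 0.32. Serpinb2, a protease inhibitor of macrophages and keratinocytes, had 85.1 ± 35.6 CPM in Nos2-high wounds and 24.9 ± 8.12 CPM in Nos2-low wounds (1.67 ± 0.31, adjusted p = 0.0318). Fgf7, a fibroblast growth factor that acts on keratinocytes, was higher by 1.12 ± 0.21, and Slc39a14, a zinc and iron importer that IL-6 induces in liver, by 1.21 ± 0.22.

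Among the lower genes were Wnt10a, a Wnt ligand of epidermis and hair follicles, at -0.59 ± 0.13, and Prlr, the prolactin receptor, at -0.48 ± 0.10. Vsig8 and Tspear, which are expressed in the hair follicle, had 4.25 ± 2.13 and 3.14 ± 0.81 CPM in Nos2-high wounds, against 9.6 ± 3.12 and 8.96 ± 4.57 CPM in Nos2-low wounds (adjusted p = 0.0373 and 0.0385). The hair follicle list, given above, is lower in the Nos2-high wounds by its median too, and its part in these 2 calls was not tested.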
